A study of Bos taurus with 7 samples.

Results

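The 33 genes described here encode enzymes, transcription factors and carrier proteins of fatty acid synthesis (11 genes), oxidation (12 genes) and uptake and storage (10 genes). They were chosen by symbol, and a probe whose gene name in the scanner output equals the symbol counts as the member. All 33 had 1 probe each, among 14964 gene names on the array. Rumen epithelium RNA came from 7 Holstein calves, 3 given forage (HAY, calves 9, 10 and 13) and 4 given none (CON, calves 8, 11, 12 and 14). The series design places the grouping 3 weeks after weaning. The title also names calf starter and ruminal pH, and the labels give no age or diet for single calves beyond forage. Each calf is a separate animal with 1 single-colour Agilent array.

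In animal cells, fatty acids are built from acetyl-CoA by ACLY, the acetyl-CoA carboxylases and fatty acid synthase, and are then lengthened by ELOVL elongases and desaturated by SCD and FADS enzymes. SREBF1 encodes a transcription factor that turns on many of these genes. For oxidation, CPT1 and CPT2 pass long-chain acyl groups into mitochondria, where chain-length specific dehydrogenases and the trifunctional protein HADHA/HADHB shorten them, under the nuclear receptors PPARA and PPARD. Storage runs through DGAT enzymes into lipid droplets coated by perilipins. The rumen wall takes up short-chain fatty acids of fermentation and uses part of them, butyrate above all, for energy.

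All values are log2 signals with the 75th percentile of the array set to 0, so a step of 1 is 2-fold. A gene was tested when 3 or more of the 7 arrays showed its probe well above background, which 29 members did. Differences are HAY minus CON from limma over 12570 genes, with Benjamini-Hochberg adjusted p-values and a threshold of 0.05. No member passed, against 1 of all 12570 genes (0.00796%). At an unadjusted limma p under 0.05 stood 2 of the 29 members (6.9%), ELOVL7 and SREBF1, against 14.0% of all genes. SREBF1 was the 1 member higher in HAY at that level (6.79% of all genes) and ELOVL7 the 1 lower (7.17%). The groups did not overlap in the same 2 members (6.9%), against 11.8% of all genes (6.55% with HAY higher and 5.30% with HAY lower). The HAY mean was above the CON mean in 20 of the 29, against 54.5% of all genes. The median log2 difference was 0.09 for synthesis, 0.11 for oxidation and 0.034 for uptake and storage, beside 0.032 for all genes. Without CON calf 14 the oxidation median was -0.061. Row 1 of the slide held only HAY arrays and row 2 only CON arrays, so an effect of the row and one of the forage cannot be told apart.

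**Figure D1:**
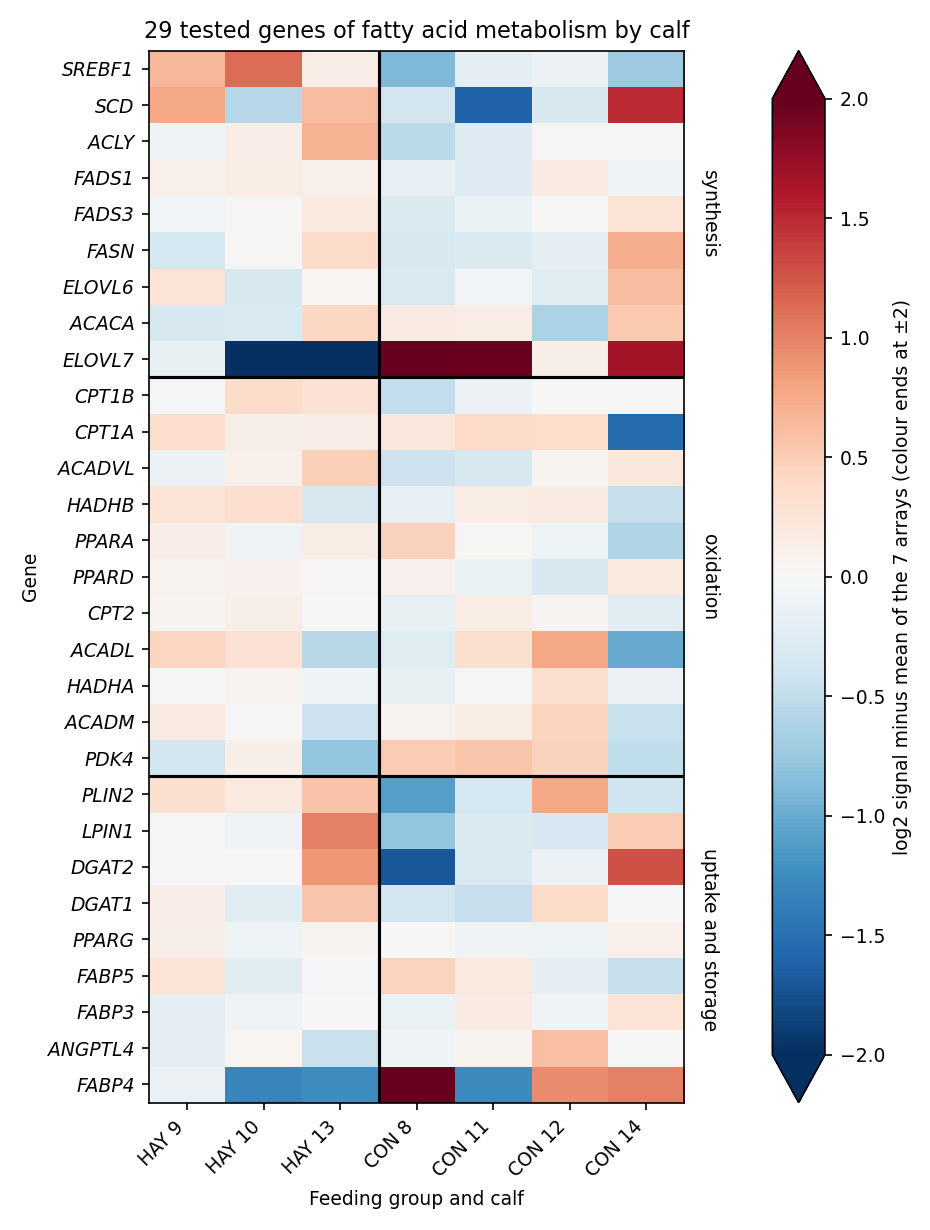
Log2 signal of the 29 tested members (rows, by role) in each of the 7 calves (columns), as the deviation from the mean of the 7 arrays, with colour ending at 2 log2 units either way. ELOVL7 is low in the 3 HAY calves against CON calves 8, 11 and 14, SREBF1 is high in them, and CON calf 14 stands apart in both the synthesis and the oxidation block.

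The interval of the difference gives its precision. In 19 of the 29 members the 95% limma interval lay within 2-fold in either direction, 6 of synthesis, 8 of oxidation and 5 of uptake and storage. In 10 it reached past 2-fold on at least 1 side, ELOVL7 and SREBF1 among them, and SCD alone past 2-fold on both sides. In bulk tissue, fewer cells of a type and less RNA per cell cannot be told apart.

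**Figure D2:**
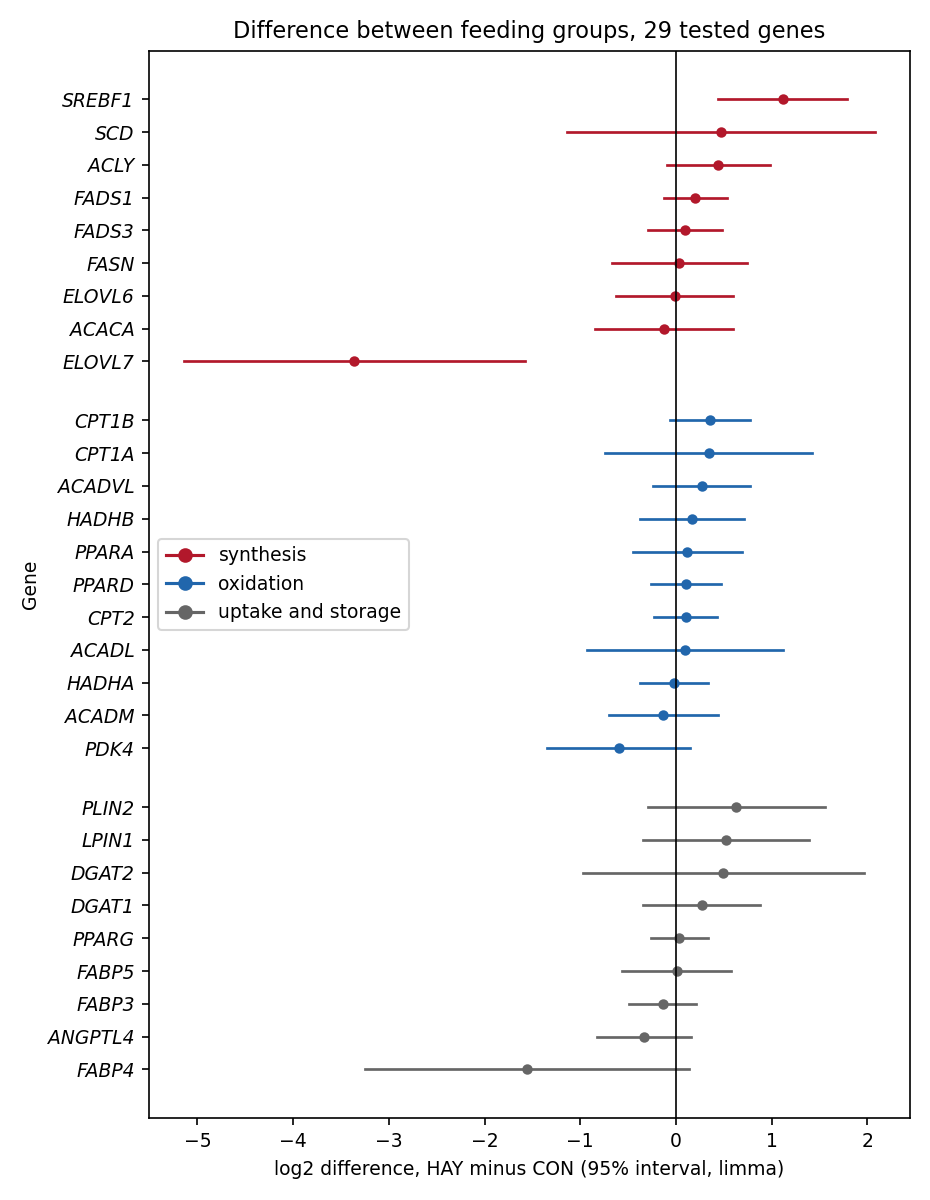
Log2 difference HAY minus CON (points) with its 95% limma interval (bars) for the 29 tested members, ordered within each role. The interval leaves out 0 for SREBF1 (0.44 to 1.79) and ELOVL7 (-5.14 to -1.58), neither of which passed the adjustment.

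Probes are 60 bases long, and their positions on UMD_3.1 are those of the deposited files. Whether they lie in coding sequence or a UTR was not analysed here. The sequences below show what was read for the 2 members with the smallest p, for a carnitine transferase that differed in 1 calf, and for 2 probes whose names need care. Only the first 30 bases are shown for ELOVL7.
SREBF1 at chr19:35247770-35247829, plus strand: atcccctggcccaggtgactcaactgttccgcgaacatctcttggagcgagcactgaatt
ELOVL7 at chr20:18534922-18534981, plus strand: gtggaaaactctgtggaaattgtcaaagtt
CPT1A at chr29:46824212-46824271, minus strand: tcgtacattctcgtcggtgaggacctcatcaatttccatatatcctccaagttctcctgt
FADS2 at chr14:39504978-39505037, plus strand: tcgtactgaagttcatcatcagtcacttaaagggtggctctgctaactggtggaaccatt
CD36 at chr4:40527258-40529044, minus strand, in pieces: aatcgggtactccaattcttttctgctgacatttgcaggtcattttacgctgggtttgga
The FADS2 probe lies on chromosome 14 in the files, whereas the RefSeq gene table of assembly ARS-UCD2.0 places FADS2 on chromosome 29. The accession of the CD36 probe belongs to LOC518526 in that table, the gene listed next to CD36 on chromosome 4. Neither probe was well above background on any array, so these data hold no level for FADS2 or CD36. ACACB, the acetyl-CoA carboxylase of the mitochondrial surface, was also not well above background on any array. PPARGC1A, a coactivator of mitochondrial genes, was well above background on 1 CON array only. These 4 members were not tested.

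Among the synthesis genes, ELOVL7, an elongase of very long-chain fatty acids, had the widest difference. Its log2 signal was -2.02, -4.35 and -5.03 in HAY calves 9, 10 and 13, against 0.12, 0.095, -1.76 and -0.21 in CON calves 8, 11, 12 and 14. All 3 HAY calves lay below all 4 CON calves, but HAY calf 9 and CON calf 12 stood close to each other. The mean was 10.3-fold lower in HAY (a log2 difference of -3.36, SE 0.76, unadjusted p = 0.00264, limma adjusted p = 0.21). Leaving out 1 calf at a time moved the difference between -4.25 (without HAY calf 9) and -2.75 (without HAY calf 13), and the adjusted p between 0.0718 and 0.556. Among the 9 processing alternatives the difference lay between -3.36 and -2.78, the latter with normexp background correction.

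SREBF1 differed the other way. It read -2.23, -1.77 and -2.75 in HAY calves 9, 10 and 13, against -3.77, -3.08, -3.01 and -3.61 in CON calves 8, 11, 12 and 14. Every HAY calf lay above every CON calf. The mean was 2.16-fold higher in HAY (a log2 difference of 1.11, SE 0.29, unadjusted p = 0.00543, limma adjusted p = 0.232). Without 1 calf the difference lay between 0.88 and 1.36. Among the 9 processing alternatives, it lay between 0.86 and 1.19 and the unadjusted p stayed under 0.05 in each, as it did for ELOVL7.

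Among the other synthesis members, ACLY, FASN and ACACA gave smaller differences than SREBF1, and their groups overlapped. ACLY, which makes cytosolic acetyl-CoA, read -2.93, -2.72 and -2.16 in HAY calves 9, 10 and 13, against -3.39, -3.11, -2.84 and -2.84 in CON calves 8, 11, 12 and 14. HAY calf 9 lay below CON calves 12 and 14, so the groups overlapped (a log2 difference of 0.44, SE 0.23, limma adjusted p = 0.432). Leaving out HAY calf 9 gave an ACLY difference of 0.60, and leaving out HAY calf 13 gave 0.22. FASN, the synthase itself, differed by 0.033 (SE 0.30) and ACACA, which makes malonyl-CoA, by -0.12 (SE 0.31). For FASN the 95% interval ran from -0.67 to 0.74, and for ACACA from -0.84 to 0.59. Both overlapped that of SREBF1, from 0.44 to 1.79.

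SCD, the stearoyl-CoA desaturase, varied more between calves than between groups. Its log2 signal was 2.55, 1.20 and 2.39 in HAY calves 9, 10 and 13, against 1.41, 0.16, 1.46 and 3.27 in CON calves 8, 11, 12 and 14. The highest and the lowest calf were both CON. The difference was 0.47 (SE 0.69), and its interval ran from -1.14 to 2.08. ELOVL6, which lengthens palmitate, differed by -0.013 (SE 0.26).

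The desaturase genes FADS1 and FADS3 spread little. FADS1, the delta-5 desaturase, read -4.96, -4.91 and -4.96 in HAY calves 9, 10 and 13, against -5.22, -5.31, -4.89 and -5.15 in CON calves 8, 11, 12 and 14. Only CON calf 12 reached the HAY values (a log2 difference of 0.20, SE 0.14, limma adjusted p = 0.557), and normexp background correction gave 0.0089. FADS3, a family member 149 kb from it by probe position, differed by 0.091 (SE 0.17).

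**Figure D3:**
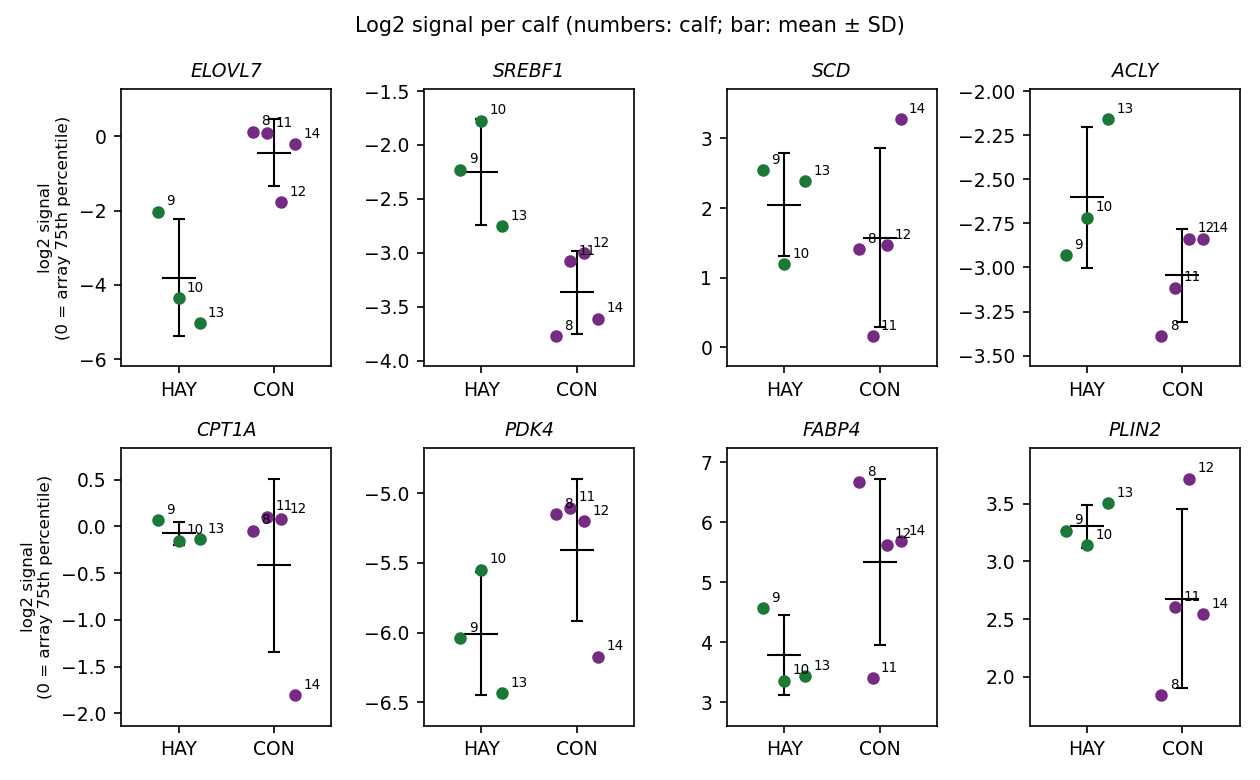
Log2 signal per calf (points, numbered by calf, vertical axis) in HAY and CON for 8 members, with the mean ± SD of each group as a bar. ELOVL7 and SREBF1 show no overlap between groups, SCD and FABP4 spread over more than 3 log2 units, and CON calf 14 stands alone at -1.81 in CPT1A.

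No oxidation gene was at an unadjusted p under 0.05, and 8 of the 11 tested had the higher mean in HAY. The smallest p belonged to CPT1B, the muscle type of the carnitine transferase. It read 1.87, 2.27 and 2.20 in HAY calves 9, 10 and 13, against 1.42, 1.79, 1.91 and 1.92 in CON calves 8, 11, 12 and 14. HAY calf 9 lay within the CON range (a log2 difference of 0.36, SE 0.18, limma adjusted p = 0.417). PDK4, a kinase that shuts pyruvate out of the citric acid cycle when fat is burned, read -6.04, -5.55 and -6.43 in HAY calves 9, 10 and 13, against -5.15, -5.11, -5.20 and -6.17 in CON calves 8, 11, 12 and 14. Apart from CON calf 14, every CON calf was above every HAY calf. The PDK4 difference was -0.60 (SE 0.32, limma adjusted p = 0.443), and -0.32 with normexp. It was -0.85 without CON calf 14 (unadjusted p = 0.00905, limma adjusted p = 0.202) and -0.39 without HAY calf 13 (unadjusted p = 0.306).

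CPT1A, the liver type of the gatekeeper, was steady in 6 calves and low in 1. It read 0.070, -0.15 and -0.14 in HAY calves 9, 10 and 13, against -0.045, 0.11, 0.079 and -1.81 in CON calves 8, 11, 12 and 14. The difference of 0.34 (SE 0.46, limma adjusted p = 0.788) turned to -0.12 without CON calf 14. CPT2, the inner membrane partner of both CPT1 forms, differed by 0.10 (SE 0.14).

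The dehydrogenases and the trifunctional protein gave differences within their errors or little above. ACADVL, for very long chains, read 3.92, 4.15 and 4.51 in HAY calves 9, 10 and 13, against 3.62, 3.73, 4.09 and 4.25 in CON calves 8, 11, 12 and 14, with overlap (a log2 difference of 0.27, SE 0.22, limma adjusted p = 0.616). ACADL, for long chains, differed by 0.091 (SE 0.44) and ACADM, for medium chains, by -0.13 (SE 0.24). HADHA and HADHB, whose probes lie 72.8 kb apart on chromosome 11, differed by -0.021 (SE 0.15) and 0.17 (SE 0.23). The nuclear receptors PPARA and PPARD differed by 0.12 (SE 0.24) and 0.11 (SE 0.16), and both turned negative with normexp (-0.022 and -0.060).

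Among the uptake and storage genes the lowest p was that of FABP4, the fatty acid binding protein of adipocytes and capillary endothelium. Its log2 signal was 4.56, 3.36 and 3.44 in HAY calves 9, 10 and 13, against 6.67, 3.39, 5.62 and 5.68 in CON calves 8, 11, 12 and 14. CON calf 11 lay among the HAY calves, and the other CON calves lay above them. The HAY mean was 2.94-fold lower (a log2 difference of -1.56, SE 0.73, unadjusted p = 0.0663, limma adjusted p = 0.386). The difference was -2.21 without CON calf 11 (unadjusted p = 0.00154, limma adjusted p = 0.284) and -1.12 without CON calf 8.

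Marker levels of adipocytes, endothelium, and macrophages and dendritic cells stood beside FABP4 as follows. ADIPOQ, the adipocyte hormone, was well above background only in CON calf 8, at -4.83, as were CIDEC and LIPE, and PLIN1 on no array. Of the 5 tested adipocyte markers, CFD was lower in every HAY calf than in every CON calf (2.08-fold, limma adjusted p = 0.255). LPL, the lipoprotein lipase, had a 3.81-fold lower mean in HAY with overlap (limma adjusted p = 0.433) and was highest in CON calf 8, at -1.19. RBP4, LEP and PLIN4 had the higher mean in HAY. The 5 tested of 9 on the array had a summed signal, in units of the array's 75th percentile, of 0.44 to 2.15 in HAY and 0.328 to 1.71 in CON, most of it RBP4 in the calves with the highest sums. Of 12 endothelial markers, 11 had the lower mean in HAY, with a summed signal of 1.94 to 5.36 in HAY and 3.94 to 6.82 in CON. An unadjusted limma p under 0.05 was found for 3 of the 12, beside 14.0% of all genes. Macrophage and dendritic cell markers summed to 6.53 to 7.19 in HAY and 10.4 to 16.7 in CON. CON calf 11, which lay among the HAY calves in FABP4, had sums of 0.573 (adipocyte), 5.64 (endothelium) and 16.7 (macrophage and dendritic cell). The part of these cells in the FABP4 values was not tested.

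FABP5, the epidermal binding protein with a probe 183 kb from that of FABP4, is best known from skin. It read 5.32, 4.82 and 4.997 in HAY calves 9, 10 and 13, against 5.49, 5.23, 4.85 and 4.58 in CON calves 8, 11, 12 and 14. The ranges overlapped throughout (a log2 difference of 0.0083, SE 0.24). FABP3, the heart and muscle form, differed by -0.14 (SE 0.15). PPARG, the adipogenic nuclear receptor, was the steadiest member, with a range of 0.213 log2 units over the 7 calves and a difference of 0.034 (SE 0.13).

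PLIN2, a coat protein of lipid droplets, read 3.27, 3.14 and 3.51 in HAY calves 9, 10 and 13, against 1.84, 2.601, 3.72 and 2.54 in CON calves 8, 11, 12 and 14. CON calf 12 was the highest calf and the other 3 CON calves lay below all HAY calves (a log2 difference of 0.63, SE 0.40, limma adjusted p = 0.508). It was 0.98 without CON calf 12 (unadjusted p = 0.00648, limma adjusted p = 0.318) and 0.35 without CON calf 8 (unadjusted p = 0.33). ANGPTL4, a secreted inhibitor of lipoprotein lipase, read 0.53, 0.75 and 0.27 in HAY calves 9, 10 and 13, against 0.63, 0.76, 1.31 and 0.70 in CON calves 8, 11, 12 and 14. Its groups overlapped (a log2 difference of -0.33, SE 0.21, limma adjusted p = 0.508), and the difference was -0.18 without CON calf 12.

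None of the triglyceride enzymes was at an unadjusted limma p under 0.05. LPIN1, a phosphatidate phosphatase, read -6.50, -6.54 and -5.46 in HAY calves 9, 10 and 13, against -7.25, -6.75, -6.80 and -5.95 in CON calves 8, 11, 12 and 14. CON calf 14 lay above HAY calves 9 and 10 (a log2 difference of 0.52, SE 0.37, limma adjusted p = 0.559), and the difference was 0.17 without HAY calf 13 and -0.025 with normexp. DGAT1 differed by 0.27 (SE 0.26). DGAT2 differed by 0.50 (SE 0.63), ranging from -3.62 in CON calf 8 to -0.65 in CON calf 14. It was 0.0012 without CON calf 8 and 0.99 without CON calf 14.

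The spread between calves of 1 group was above the all-gene median in 21 of the 29 members and not above it in 8. The median within-group SD was 0.428 for synthesis, 0.329 for oxidation and 0.381 for uptake and storage, beside 0.269 over all genes tested. It reached 1.22 for ELOVL7, 1.15 for FABP4 and 1.10 for SCD, and was 0.0982 for PPARG.

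CON calf 14 combined high values in some synthesis genes with low values in some oxidation genes, a pattern noticed in these data and given with no test. It was the highest of the 7 calves in 5 of 9 synthesis genes, FASN, ACACA, SCD, ELOVL6 and FADS3, and the lowest in none. For SREBF1, however, only CON calf 8 read lower. In 6 of 11 oxidation genes, CPT1A, CPT2, ACADM, ACADL, HADHB and PPARA, CON calf 14 was the lowest. It was the highest in PPARD, and in ACADVL only HAY calf 13 read higher. The mean deviation of CON calf 14 from the 7-array mean was 0.50 over the synthesis genes, where the other CON calves lay between -0.13 and -0.074. Over the oxidation genes it was -0.41, against -0.022 to 0.20 in the other CON calves. The mean over 14 markers of keratinised epithelium was also highest in this calf, at 0.41 against -0.29 to 0.038 in the others. Of these markers DSG1, SBSN, KRT5 and SFN were highest in CON calf 14. DSG1 read 2.34 there against -1.19 to 0.95 in the other calves, and SBSN 0.83 against -3.66 to -0.86. KRT5 read 6.14 against 5.51 to 5.91, and SFN 3.48 against 2.61 to 3.33. TP63 was lowest there, and the remaining markers were highest in other calves. Their part in the pattern was not tested.

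**Figure D4:**
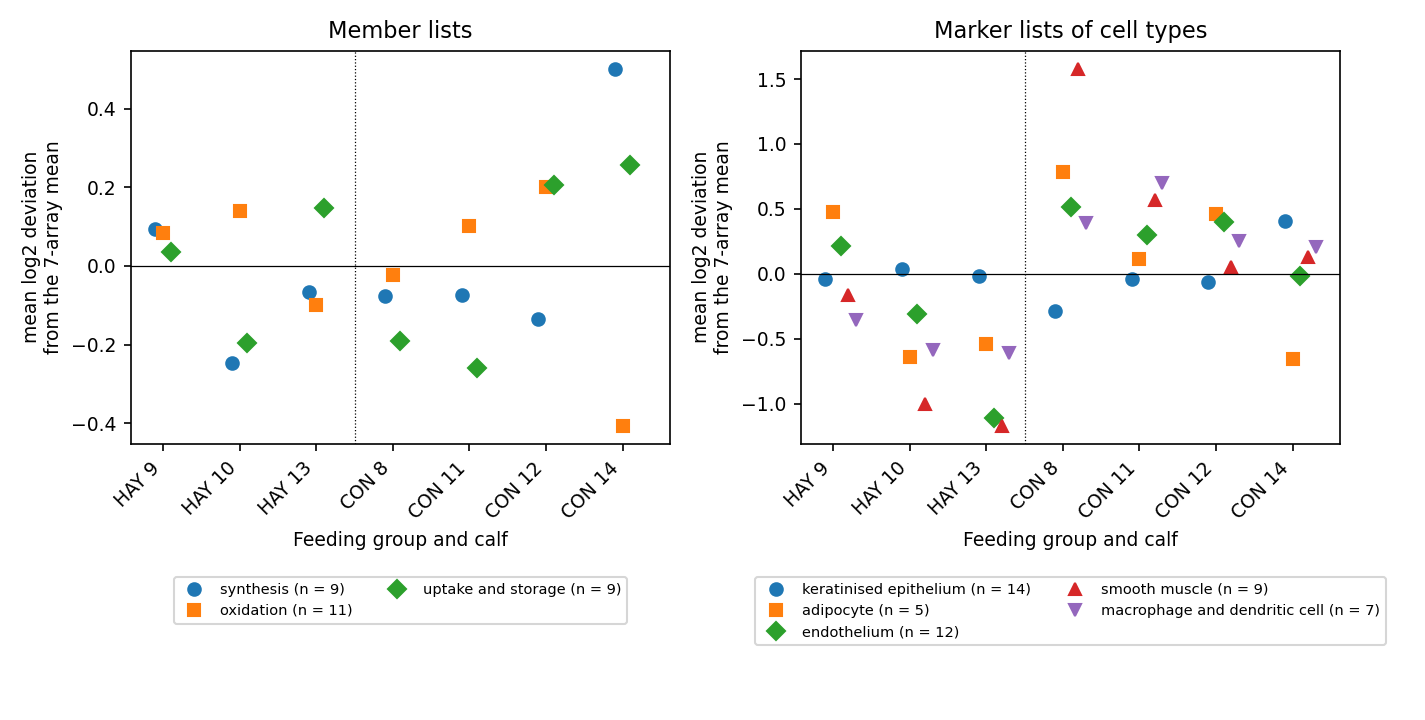
Mean log2 deviation from the 7-array mean per calf (horizontal axis) for the 3 member lists (left) and 5 marker lists (right). CON calf 14 is highest for synthesis (0.50) and lowest for oxidation (-0.41), while smooth muscle and macrophage markers are lower in every HAY calf than in every CON calf.

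Of 14 markers of keratinised epithelium on the array, the labelled tissue, 13 were well above background on all 7 arrays, and KRT4 was so in no HAY calf. Markers of cells of the underlying tissue were measured too, and none passed the adjusted threshold. An unadjusted limma p under 0.05 was found for 7 of 9 smooth muscle, 6 of 11 fibroblast and 6 of 7 macrophage and dendritic cell markers. The share over all genes was 14.0%. All 9 smooth muscle, all 11 fibroblast and 6 of 7 macrophage and dendritic cell markers had the lower mean in HAY, with median differences of -1.33, -1.47 and -1.16. Over all genes, 54.5% had the higher mean in HAY. The summed signal was 11.7 to 26.8 in HAY and 28.5 to 64.0 in CON for smooth muscle, 16.2 to 73.4 and 49.4 to 237 for fibroblasts, and 6.53 to 7.19 and 10.4 to 16.7 for macrophages and dendritic cells. Without HAY calf 13 and CON calf 8, which had the lowest and the highest smooth muscle and fibroblast values, ELOVL7 differed by -2.56, SREBF1 by 1.23 and FABP4 by -0.94. Among the remaining calves the smooth muscle sums and the macrophage and dendritic cell sums still did not overlap between the groups. This removal therefore left that imbalance in place, and the part of these cells in the members' values was not tested.

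Other genes of the same pathways, 90 in all of which 80 were tested, gave no gene past the threshold either. At an unadjusted limma p under 0.05 stood 12 (15%), beside 14.0% of all genes, with 8 higher and 4 lower in HAY. They came to 4 of 21 for synthesis, all higher, 5 of 29 for oxidation, 3 higher and 2 lower, and 3 of 30 for uptake and storage, 1 higher and 2 lower. The groups did not overlap in 12 of the 80 (15%), beside 11.8% of all genes. Both held in 9 genes, which are given here, while ACAA1, HSD17B12 and GPAT3 did not overlap but were not at an unadjusted p under 0.05.

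INSIG1, which holds SREBP proteins in the endoplasmic reticulum and is itself one of their targets, read 2.31, 2.75 and 2.74 in HAY calves 9, 10 and 13, against 1.33, 2.05, 1.99 and 1.62 in CON calves 8, 11, 12 and 14. It was 1.81-fold higher in HAY (a log2 difference of 0.85, SE 0.22, limma adjusted p = 0.232), with every HAY calf above every CON calf. ME1, the malic enzyme that supplies NADPH to the synthase, read 4.47, 4.17 and 3.91 in the HAY calves and 3.73, 3.68, 3.66 and 3.31 in the CON calves. It was 1.501-fold higher (a log2 difference of 0.59, SE 0.18, limma adjusted p = 0.27). MLXIPL, the carbohydrate-responsive factor, and ELOVL3, an elongase, had differences of 1.54 (SE 0.65) and 1.45 (SE 0.57) with overlap. Together with PPARGC1B, a PPAR coactivator at 0.59 (SE 0.24), they fall outside the rule for named genes and were chosen after their values were seen.

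Long-chain acyl-CoA synthetases, which activate fatty acids for every later step, went both ways. ACSL5 read -1.20, -1.49 and -1.82 in HAY calves 9, 10 and 13, against -0.056, 0.018, -0.30 and -0.62 in CON calves 8, 11, 12 and 14. It was 2.40-fold lower in HAY (a log2 difference of -1.26, SE 0.22, unadjusted p = 0.000469, limma adjusted p = 0.164). ACSL4, the arachidonate-preferring form, was 1.44-fold lower (a log2 difference of -0.52, SE 0.17, limma adjusted p = 0.272). ACSL1 read -0.26, -1.35 and -0.91 in the HAY calves and -1.42, -1.84, -1.61 and -1.90 in the CON calves. Its mean was 1.81-fold higher in HAY (a log2 difference of 0.85, SE 0.27, limma adjusted p = 0.27), and HAY calf 10 and CON calf 8 stood close together. Without HAY calf 9 the difference was 0.56. ACADS, the short-chain acyl-CoA dehydrogenase that acts on butyryl-CoA, read 5.62, 5.91 and 5.66 in HAY and 5.34, 4.99, 5.58 and 4.70 in CON. Its 1.49-fold higher mean in HAY (a log2 difference of 0.58, SE 0.23, limma adjusted p = 0.326) left only a narrow gap between HAY calf 9 and CON calf 12.

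Of the storage genes, GPAT4, an acyltransferase that starts glycerolipid synthesis and is named AGPAT6 in the files, was 1.55-fold lower in HAY (a log2 difference of -0.63, SE 0.17, limma adjusted p = 0.247). MGLL, the monoglyceride lipase, read -1.19, -1.48 and -2.74 in the HAY calves and -0.66, -0.85, -0.52 and -0.83 in the CON calves. It was 2.13-fold lower (a log2 difference of -1.09, SE 0.35, limma adjusted p = 0.274), and by -0.62 without HAY calf 13. PLIN3, another droplet coat protein, was 1.35-fold higher in HAY (a log2 difference of 0.44, SE 0.16, limma adjusted p = 0.311). With quantile normalization the unadjusted limma p was 0.0668 for PLIN3, 0.0748 for ACADS and 0.0523 for ME1. With the slide column as a block it was 0.0733 for PLIN3.

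**Figure D5:**
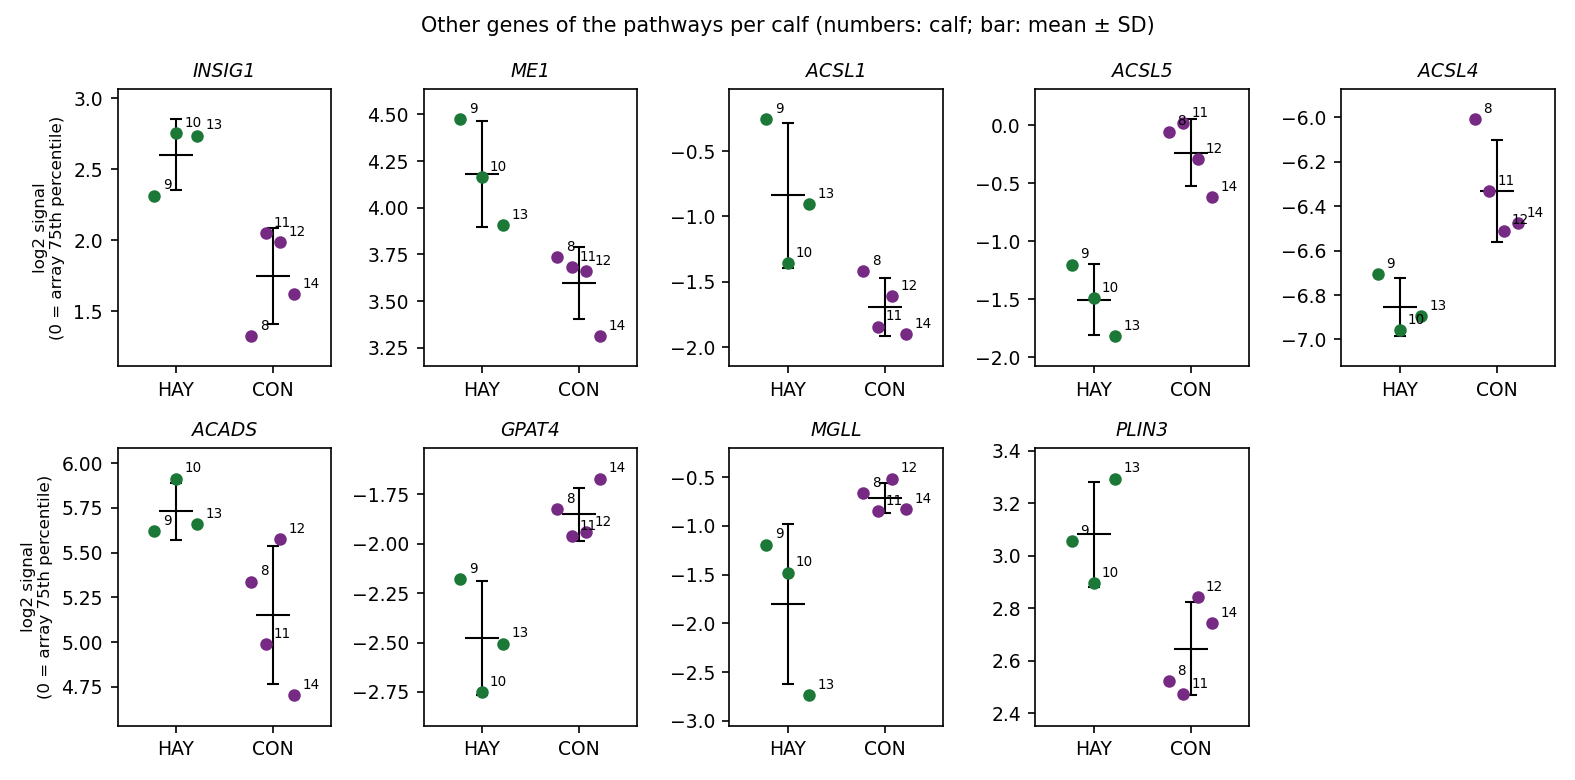
Log2 signal per calf (points, numbered by calf) in HAY and CON for 9 other genes of the same pathways, with the mean ± SD of each group. In each panel the groups do not overlap, and the distance between the nearest HAY and CON calf is narrow for ACADS, ACSL1 and PLIN3.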

How the data were processed

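The deposited scanner files hold processed spot intensity on a linear scale, with spatial and multiplicative detrending switched on per the file headers. The submitters' processing notes name Agilent Feature Extraction 9.5. RNA input was 500 ng per the labels' protocols. The deposited whole-series table of log2 values matched these signals on the 75th percentile scale (SD of the difference at most 0.000352). Between 81.5 and 84.6% of spots were well above background, and the number of arrays limits the precision. Outlier and control spots were left out, spots of a probe averaged, and for genes with several probes the brightest used. RefSeq accessions (ARS-UCD2.0) named 11194 of 15008 probes. Groups were compared with limma 3.58.1 in R 4.3.3, tested on simulated data. Members and lists were chosen with earlier results of these data known. All 7 values are given for members at an unadjusted p under 0.05 or without overlap, and per role for the 4 of smallest p and 2 of largest difference. Values of SCD and FABP5 were added after being seen. Related genes needed both an unadjusted p under 0.05 and no overlap. Of the fixed marker lists, 4 of 5 tested skeletal muscle markers were higher in HAY, beside 54.5% of all genes, with a median of 0.29.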

Additional observations from a re-analysis of the deposited data

Results flagged for a closer look

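Values of 38 genes were screened in the 4 CON calves for a calf far from the others, and chance flags about 1 in 20 groups. It picked out 3 genes, each time CON calf 14. CPT1A stood at -1.81 there, with the other CON calves between -0.045 and 0.11. PDK4 stood at -6.17, with the others between -5.20 and -5.11. FASN stood at -3.46, with the others between -4.50 and -4.36.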

How the results depend on the processing

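The groups share no calf number, so calves were not paired by number. The slide column block sets 1 HAY beside 1 CON array in 3 columns, leaves CON calf 8 without a partner, and pairs positions on the slide, not animals. Of 646 values of single genes under an alternative, 610 kept their direction and none passed the threshold (lowest limma adjusted p 0.0718). The member count past the threshold was 0 under every alternative run, and the medians of the 3 lists moved by less than 1 SD between calves, though each turned negative when some calf was left out (lowest -0.00095 for synthesis, -0.061 for oxidation and -0.011 for uptake and storage, which was also -0.061 with quantile normalization). Genes past the threshold over all were 4 with quantile normalization, 2 with the slide column as a block, 5 without HAY calf 13 and CON calf 8 (added after seeing the data), and 1 to 21 when leaving out 1 calf, the 21 without CON calf 14. Members at an unadjusted p under 0.05 were 4 of 29 with the slide column as a block, where PDK4 and ANGPTL4 joined, beside 1810 of all 12570 genes. They were 2 to 4 when leaving out 1 calf, beside 984 to 2344 of all genes. Related genes at that level were 7 to 14 of 80 when leaving out 1 calf. The 7 came without HAY calf 10, where 988 of all genes were at that level.

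Direction turned in 16 genes, none of them at an unadjusted p under 0.05 to begin with. With normexp FASN was -0.034, PPARA -0.022, PPARD -0.060 and LPIN1 -0.025. With median centring ELOVL6 was 0.051 and HADHA 0.043, and with quantile normalization ELOVL6 was 0.060, PPARG -0.069 and FABP5 -0.097. The slide column block gave FASN -0.067. Without HAY calf 13 and CON calf 8, FASN was -0.25, FADS3 -0.061, ACADM 0.049, LPIN1 -0.019, DGAT1 -0.014 and DGAT2 -0.29. Leaving out 1 calf gave ranges of -0.15 to 0.28 for FASN, -0.36 to 0.035 for ACACA, -0.00095 to 1.04 for SCD, -0.15 to 0.19 for ELOVL6, -0.12 to 0.52 for CPT1A, -0.30 to 0.042 for ACADM, -0.23 to 0.40 for ACADL, -0.073 to 0.081 for HADHA, -0.063 to 0.29 for PPARA, -0.011 to 0.095 for PPARG and -0.14 to 0.16 for FABP5. The cause was not tested. Dim probes left FADS2, CD36, ACACB and PPARGC1A untested.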
